A study of Homo sapiens with 4 samples.

Results

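SF3A2, DAZAP1, CIRBP, LSM7 and DROSHA encode proteins that bind, splice or cut RNA. Their rows were picked by place on GRCh38 from the deposited table of ribosome footprint counts, on the short arm of chromosome 19 for SF3A2, DAZAP1, CIRBP and LSM7 and on the short arm of chromosome 5 for DROSHA, and they are 5 of its 78724 rows. Ribosome profiling sequences the short mRNA pieces that a ribosome shields from nuclease, so a row counts ribosomes on an mRNA. The count reflects how much mRNA there is, how often it is translated and how fast ribosomes move along it. Footprint counts alone cannot separate them. Footprints came from A375, an established human melanoma cell line, after 48 h in medium that held all amino acids except L-arginine (2 libraries) or in control medium (2 libraries). The series is titled as a study of cancers that lack ASS1, an enzyme on the route by which cells make arginine from citrulline. Both groups are the same single cell line, and the labels do not tell whether the replicates were cultured separately. The p-values therefore reflect variation among libraries that may be technical only.

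The members act at different points in the life of an RNA. The spliceosome removes introns, and its U2 particle, which holds SF3A2, recognises the branch point. LSM7 belongs to a family of small proteins that form rings, one of which holds the U6 RNA of the spliceosome while another starts mRNA decay in the cytoplasm. DAZAP1 is an hnRNP-like protein that binds pre-mRNA and influences splice site choice. CIRBP is a glycine-rich protein with an RNA recognition motif that is induced by mild cold and enters stress granules. DROSHA is the nuclear RNase III that, with DGCR8, cuts microRNA hairpins out of their primary transcripts.

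Libraries held 234766 and 192006 reads in arginine-free medium and 105004 and 217989 in control medium, and mitochondrial rows took between 16.5% and 26.2% of them. The table's coordinates match GRCh38 while the submitters' processing notes name GRCh37, and 72.8% of 18284 nuclear protein-coding rows outside the stretches used here were listed at 0. Rows were read as genes inside stretches named by their end genes, which were chosen with earlier results of these data known. There, 15.0% of 100 protein-coding rows were at 0 on chromosome 19 (ATP5F1D to CHAF1A), 34.1% of 132 on chromosome 5 (SDHA to HMGCS1) and 36.1% of 133 on chromosome 9 (VLDLR to VCP). Part of a gene's reads may still lie outside its row. Of the melanocytic markers inside a stretch, MLANA had 0 and 2 reads in arginine-free medium against 6 and 10 in control medium, and TYRP1 had 1 and 0 against 16 and 25. Rows of the markers MITF, PMEL, TYR and SOX10, outside the stretches, were listed at 0 in every library. The row of S100B, also outside, had 0 and 0 reads in arginine-free medium against 1 and 1 in control medium, and DCT had no matched row.

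Footprints on CIRBP and SF3A2 rose in arginine-free medium, 3.39-fold and 1.89-fold, while LSM7, DAZAP1 and DROSHA did not pass the test. The test was edgeR's quasi-likelihood test over 2526 rows, its p-values adjusted by the Benjamini-Hochberg method and read at 0.05. It called 16.0% of all tested rows higher and 16.9% lower, and 15.4% higher and 15.4% lower among the 162 tested protein-coding rows inside the stretches. Against that background, 2 higher calls among 5 members is a small count, and the values of the single genes carry the result. All 5 rows held at least 20 reads over the 4 libraries and passed the filter on low counts. Levels below are CPM, the counts of a row scaled to a common total of tested reads, with TMM factors.

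**Figure D1:**
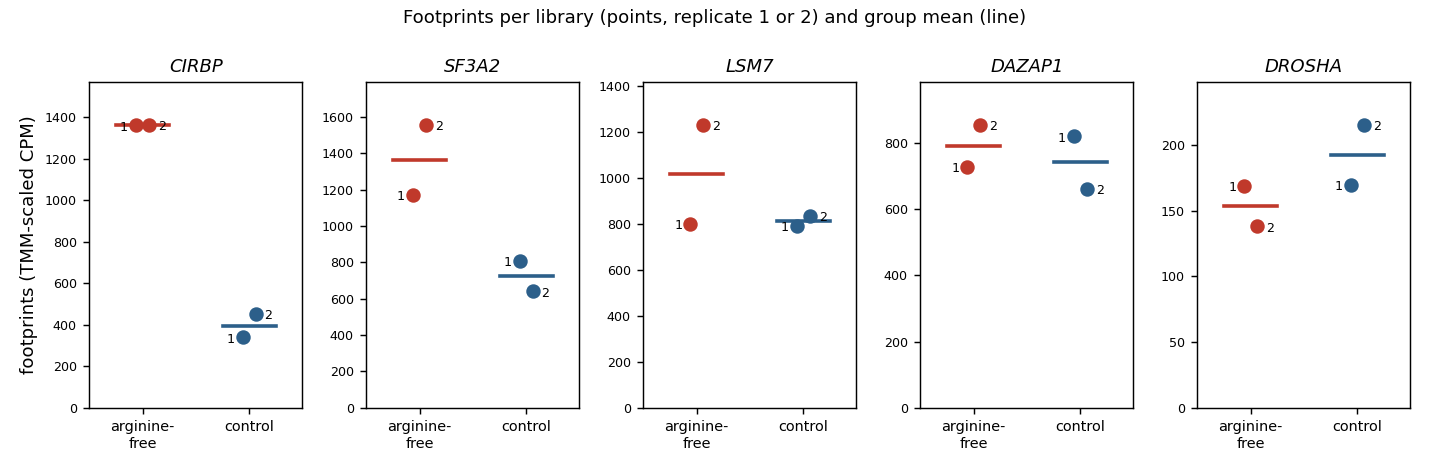
Footprints on the 5 members as TMM-scaled CPM (vertical axes from 0, a scale for each gene), with a point for each library, numbered by replicate, and a line at the mean of 2 libraries. Both arginine-free libraries lie above both control libraries for CIRBP and SF3A2, while for LSM7 and DAZAP1 the groups overlap.

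CIRBP (ENSG00000099622, chromosome 19, 1259384 to 1274810, plus strand) had 314 and 217 reads in arginine-free medium, against 36 and 88 reads in control medium. Scaled for depth, these were 1360 and 1363 CPM in arginine-free medium, against 339 and 451 CPM in control medium. The arginine-free libraries were nearly equal, and both lay far above the control libraries. Mean levels were 1361 ± 2.21 CPM in arginine-free medium and 395 ± 79.2 CPM in control medium (SD, n = 2 each). On the log2 scale the row was higher by 1.76 (SE 0.23, adjusted p = 5.53e-05 with edgeR). Among the 162 tested protein-coding rows inside the stretches, the log2 fold change of CIRBP ranked 7 from the top. The call held under all 13 alternatives, with log2 fold changes from 1.52 to 2.02 and adjusted p from 1.43e-10 to 0.00133.

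The CIRBP row is wider than the RefSeq gene of that name, which spans 1269332 to 1274880, because the row also holds exons upstream of that start. Reads from these and from the RefSeq exons cannot be separated in the table. The antisense gene CIRBP-AS1 shares 4 bases with the exons of CIRBP and held 0 and 2 reads in arginine-free medium and 0 and 0 in control medium. Counting was without strand, so reads of the 2 genes in those bases cannot be told apart. MIDN, a nuclear protein that brings others to the proteasome, lies 240 bases upstream of the start of the wider row, not of the RefSeq start. It had 242 and 189 reads in arginine-free medium against 79 and 112 in control medium, and also rose (log2 fold change 0.77, SE 0.22, edgeR adjusted p = 0.0154). The neighbour 719 bases downstream, FAM174C, had 33 and 31 against 18 and 14 reads and did not pass (log2 fold change 0.59, SE 0.40, edgeR adjusted p = 0.279).

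SF3A2 (ENSG00000104897, chromosome 19, 2236824 to 2248655, plus strand) had 271 and 248 reads in arginine-free medium, against 86 and 125 reads in control medium. These were 1174 and 1558 CPM in arginine-free medium, against 810 and 641 CPM in control medium. The groups did not overlap, which was so in this direction for 33.1% of all tested rows. Mean levels were 1366 ± 272 CPM in arginine-free medium and 726 ± 120 CPM in control medium (SD, n = 2 each). The log2 difference was 0.92 (SE 0.23), with an edgeR adjusted p of 0.00822. The call ended without control replicate 2, at 0.77 on the log2 scale (adjusted p of 0.131 by edgeR), and held under the other 12 alternatives (adjusted p from 0.000118 to 0.0304). The row of PLEKHJ1, on the other strand, shares 78 bases or 4.82% of the SF3A2 exons and held 13 and 10 reads in arginine-free medium against 5 and 15 in control medium.

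The sequence of the 250 bases before the RefSeq start is shown for the 2 genes that rose and, for comparison, for DAZAP1, which lies on the same arm and did not pass. The windows are on GRCh38.p14, plus strand, at chr19:1269082-1269331 for CIRBP, chr19:2236574-2236823 for SF3A2 and chr19:1407336-1407585 for DAZAP1, from RefSeq. Capitals mark the motifs that were found, CCAAT and GGGCGG, on either strand, so that ATTGG and CCGCCC are the same motifs read from the other strand.
CIRBP: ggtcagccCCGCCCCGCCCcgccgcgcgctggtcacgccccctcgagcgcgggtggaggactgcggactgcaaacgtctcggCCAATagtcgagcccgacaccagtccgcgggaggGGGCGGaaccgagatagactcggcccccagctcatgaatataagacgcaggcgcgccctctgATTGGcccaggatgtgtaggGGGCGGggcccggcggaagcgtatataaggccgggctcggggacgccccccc
SF3A2: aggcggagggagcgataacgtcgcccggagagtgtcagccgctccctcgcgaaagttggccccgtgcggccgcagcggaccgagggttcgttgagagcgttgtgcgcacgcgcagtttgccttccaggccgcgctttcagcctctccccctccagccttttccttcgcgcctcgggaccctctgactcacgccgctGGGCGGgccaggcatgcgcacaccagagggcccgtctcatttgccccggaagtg
DAZAP1: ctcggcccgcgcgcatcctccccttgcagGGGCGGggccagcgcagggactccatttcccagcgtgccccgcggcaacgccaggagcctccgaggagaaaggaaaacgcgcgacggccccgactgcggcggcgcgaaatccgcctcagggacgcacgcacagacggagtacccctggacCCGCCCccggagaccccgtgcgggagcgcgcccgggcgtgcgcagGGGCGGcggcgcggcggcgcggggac

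CCAAT, the core of NF-Y sites, stood in the CIRBP window at 168 and 72 bases before the start and was absent from those of SF3A2, DAZAP1 and LSM7, while 32.7% of 22199 windows of protein-coding genes held it. The DROSHA window held 3 matches. GGGCGG, the core of a GC box, occurred 4 times for CIRBP, with 2 matches that overlap, 3 times for DAZAP1 and 1 time each for SF3A2, LSM7 and DROSHA, against 53.7% of windows with a match. None of the 5 windows held TATAAA, the E-box CACGTG, the amino acid response core TGATGNAA or the cAMP response element TGACGTCA, which occurred in 9.01%, 7.37%, 2.35% and 2.01% of all windows. The windows of CIRBP and SF3A2 were 71.2% and 68.4% G or C, that of DAZAP1 77.2%, and the median of all windows was 62.0%. Only the motifs as written were searched, so near forms such as tatataag in the CIRBP window were not counted. These matches describe letters only, and footprint counts do not measure promoter activity.

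LSM7 (ENSG00000130332, chromosome 19, 2321520 to 2328611, minus strand) had 185 and 196 reads in arginine-free medium, against 84 and 163 reads in control medium. These were 801 and 1231 CPM in arginine-free medium, against 792 and 836 CPM in control medium. Arginine-free replicate 1 lay between the control libraries and replicate 2 above both, so the groups overlapped. Means were 1016 ± 304 CPM in arginine-free medium and 814 ± 31.3 CPM in control medium (SD, n = 2 each), and the fitted log2 difference of 0.31 (SE 0.24) did not pass (edgeR adjusted p = 0.341). The value moved with either arginine-free library: it was 0.64 and passed when arginine-free replicate 1 was dropped (edgeR adjusted p = 0.0259), and it was 0.03 when arginine-free replicate 2 was dropped (adjusted p = 0.933). SPPL2B, a membrane protease gene that starts 72 bases away on the other strand, fell, with 6 and 11 reads in arginine-free medium against 15 and 28 in control medium (log2 fold change -1.67, SE 0.47, edgeR adjusted p = 0.0137). On the other side the nearest protein-coding row with 20 reads was OAZ1, the antizyme that restrains polyamine synthesis, 48029 bases from LSM7 and 20864 bases from SF3A2. It rose, with 229 and 176 reads in arginine-free medium against 43 and 73 in control medium (log2 fold change 1.43, SE 0.22, edgeR adjusted p = 0.000247).

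DAZAP1 (ENSG00000071626, chromosome 19, 1407569 to 1435687, plus strand) had 168 and 136 reads in arginine-free medium, against 87 and 129 reads in control medium. These were 728 and 854 CPM in arginine-free medium, against 820 and 662 CPM in control medium, so the libraries of the groups interleaved. Means were 791 ± 89.6 CPM in arginine-free medium and 741 ± 112 CPM in control medium (SD, n = 2 each). The log2 fold change was 0.10 (SE 0.22, edgeR adjusted p = 0.751), smaller than its error, and it lay between -0.13 and 0.27 over the alternatives, none of which passed. On either side of DAZAP1 lie GAMT, of creatine synthesis, which fell (log2 fold change -2.34, SE 0.48, edgeR adjusted p = 0.00206), and the ribosomal protein gene RPS15, which did not pass (0.42, SE 0.25, edgeR adjusted p = 0.225).

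DROSHA (ENSG00000113360, chromosome 5, 31400494 to 31532109, minus strand) had the fewest reads of the 5 rows, 39 and 22 in arginine-free medium against 18 and 42 in control medium, in a row of 36 exons. These were 168.9 and 138 CPM in arginine-free medium, against 169.6 and 215 CPM in control medium. Both arginine-free libraries were below both control libraries, which was so for 34.2% of all tested rows, and 1 pair of libraries was almost equal. Means were 154 ± 21.7 CPM in arginine-free medium and 193 ± 32.4 CPM in control medium (SD, n = 2 each), and the fitted log2 difference of -0.34 (SE 0.32) did not pass (edgeR adjusted p = 0.443). The row held 121 reads in all, and part of the gene's reads may lie outside it. C5orf22, whose row starts 191 bases from that of DROSHA on the other strand, had 35 and 11 reads in arginine-free medium against 20 and 40 in control medium and did not pass either (log2 fold change -0.78, SE 0.37, edgeR adjusted p = 0.117). On the other side the nearest protein-coding row with 20 reads, MYO10, an unconventional myosin, lies 14464205 bases away. It fell, with 79 and 56 reads in arginine-free medium against 108 and 179 in control medium (log2 fold change -1.47, SE 0.22, edgeR adjusted p = 0.000179).

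**Figure D2:**
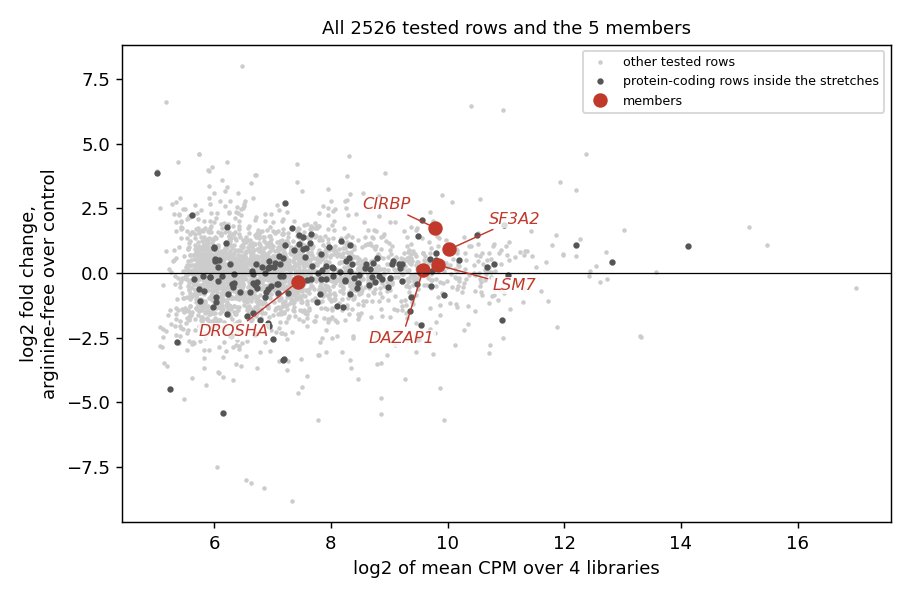
Log2 fold change (arginine-free over control, vertical axis) against the log2 of mean CPM (horizontal axis) for 2526 tested rows in grey, the 162 protein-coding rows inside the stretches in dark grey and the 5 members in red. CIRBP stands at 1.76 and SF3A2 at 0.92, within the spread of the other rows, and DROSHA has the lowest level of the 5.

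Per length of exon, LSM7 had the highest footprint level of the members and DROSHA the lowest in both media. LSM7 averaged 1694 CPM per kilobase in arginine-free medium and 1356 in control medium over its 600 exonic bases. SF3A2 averaged 844 CPM per kilobase in arginine-free medium and 448 in control medium, over 1619 bases. CIRBP and DAZAP1 were alike in arginine-free medium, at 342 and 345 CPM per kilobase, but stood at 99.2 and 323 in control medium, over 3986 and 2293 bases. The 3986 bases of CIRBP include the exons upstream of its RefSeq start, so its level per kilobase depends on the wider row. DROSHA averaged 28.3 CPM per kilobase in arginine-free medium and 35.4 in control medium over 5432 bases. Exonic length counts untranslated exons as well, so these levels understate the density on the coding part of genes with long untranslated regions. Part of a gene's reads may also lie outside its row, and that part was not measured for any member. Rows at 0 were 34.1% of protein-coding rows in the stretch of DROSHA and 15.0% in that of the other members. Whether this lowers the level of DROSHA was not tested.

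The ratio of reads of a pair of members within a library does not depend on how libraries are scaled. CIRBP had 1.87 and 1.60 reads for each DAZAP1 read in arginine-free medium, against 0.414 and 0.682 in control medium. Its ratio to LSM7 was 1.70 and 1.11 in arginine-free medium, against 0.429 and 0.540 in control medium. CIRBP was thus the less read row of both pairs in each control library and the more read row in each arginine-free library. SF3A2 had 1.61 and 1.82 reads for each DAZAP1 read in arginine-free medium, against 0.989 and 0.969 in control medium. The ratio of LSM7 to DAZAP1 was 1.10 and 1.44 in arginine-free medium, against 0.966 and 1.26 in control medium, and overlapped. CIRBP also gained on SF3A2, with ratios of 1.16 and 0.875 in arginine-free medium, against 0.419 and 0.704 in control medium. These ratios were not tested, and the pairs reuse the same genes. For single rows, the groups lay apart upward in 33.1% and downward in 34.2% of all tested rows.

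**Figure D3:**
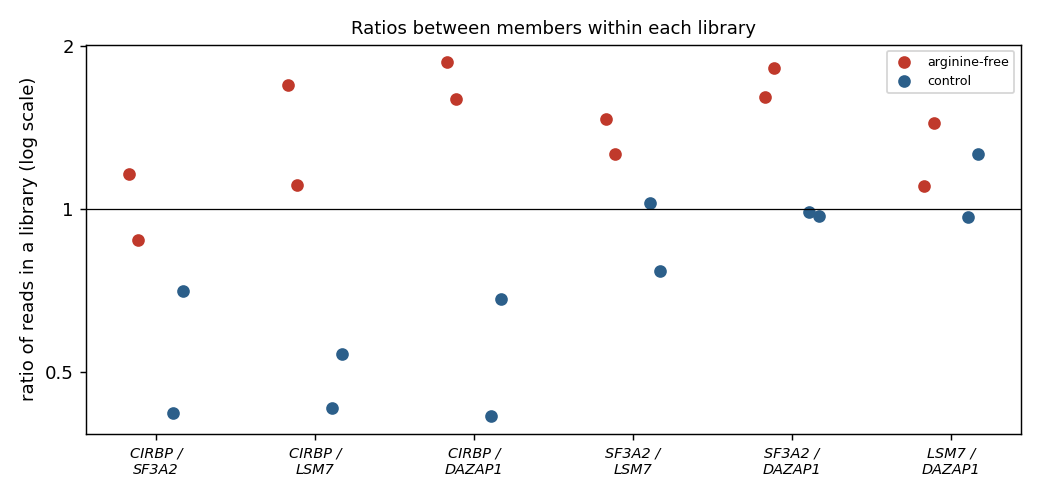
Ratio of reads between pairs of the 4 chromosome 19 members in each library (log axis), with arginine-free libraries in red left of control libraries in blue. The libraries of the media lie apart in all pairs shown except LSM7 over DAZAP1. The pairs reuse the same genes and were not tested.

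The wider list of splicing factors, hnRNP and other RNA-binding proteins and microRNA processing enzymes had 205 of 211 genes matched to a row, and 131 of these rows were listed at 0. In the stretches and on the telomere side of ATP5F1D on chromosome 19, 13 list genes had a row and 10 were tested, of which 2 rose (CIRBP and SF3A2), none fell and 8 did not pass. Of all tested rows, 16.0% were higher and 16.9% lower, and of the 53 tested protein-coding rows of the chromosome 19 stretch, 11 and 10. The median log2 fold change of the 10 list rows was 0.27, against -0.03 over all tested rows and 0.18 over those 53 rows. The 3 list genes not tested were ELAVL2, with 1 and 2 reads in arginine-free medium against 0 and 0 in control medium, and CELF5 and ZFR2, both listed at 0 throughout. Elsewhere 34 list rows were tested, with 5 higher and 8 lower and a median of -0.28, but their reads need not come from the genes whose places they hold, so none is named. Over the whole list, 7 rows were higher and 8 lower of 44 tested, close to the background shares of 16.0% and 16.9%.

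In the stretches and on the telomere side of ATP5F1D, none of the 5 tested list genes that are not members passed. PTBP1, a repressor of exon inclusion, had 743 and 499 reads in arginine-free medium, against 299 and 511 in control medium, and averaged 3176 ± 59.1 CPM in arginine-free medium and 2719 ± 139 CPM in control medium (SD, n = 2 each). Its log2 fold change was 0.23 (SE 0.22, edgeR adjusted p = 0.465). NSUN2, an RNA cytosine methyltransferase, had 338 and 371 CPM in arginine-free medium, against 254 and 256 CPM in control medium (log2 fold change 0.47, SE 0.26, edgeR adjusted p = 0.192). The groups of NSUN2, ZFR and PTBP1 did not overlap, with the arginine-free libraries above the control libraries, which was so for 33.1% of all tested rows. ZFR, a zinc finger protein that binds double-stranded RNA, stood at 0.40 on the log2 scale (SE 0.24, edgeR adjusted p = 0.222). SMU1, a component of the spliceosome, and RPP25L, related to a subunit of RNase P, stood at 0.08 (SE 0.21) and 0.23 (SE 0.34) on the same scale.

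**Figure D4:**
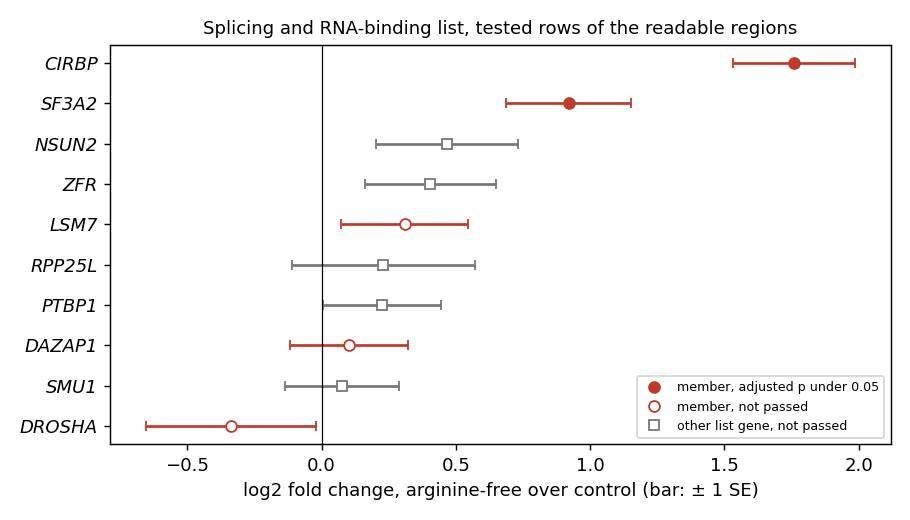
Log2 fold change (arginine-free over control, horizontal axis) with bars of 1 SE for the 10 tested list genes, members in red circles and others in grey squares, filled where the adjusted p was under 0.05. CIRBP and SF3A2 are the filled points, and DROSHA is the only one below 0.

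For each member, the 3 protein-coding rows inside the stretches with the most similar profile were found by the root-mean-square difference of log2 CPM, centred on the row's mean, over 4 libraries. With so few libraries, likeness mainly reflects the size of the difference between the media and which replicate was higher. Nearest to CIRBP were PLIN2, which coats lipid droplets (0.188), MED10, of the Mediator complex (0.190), and RPL37, of the large ribosomal subunit (0.194). Nearest to SF3A2 were RPS6, of the small ribosomal subunit (0.103), MIDN (0.107) and the elongation factor EEF2 (0.128). Among protein-coding rows inside the stretches, the 3 nearest to SF3A2 were thus closer to it than any was to CIRBP. DAZAP1 had CDC37L1 (0.0836), UBAP2 (0.0931) and the histone methyltransferase gene DOT1L (0.109) nearest, and LSM7 had PTGER4 (0.113), FSD1 (0.114) and RPS15 (0.116). DENND4C (0.0801), OSMR, a cytokine receptor (0.0807), and WDR70 (0.117) were nearest to DROSHA, with log2 fold changes of -0.31, -0.42 and -0.38 and no call.

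**Figure D5:**
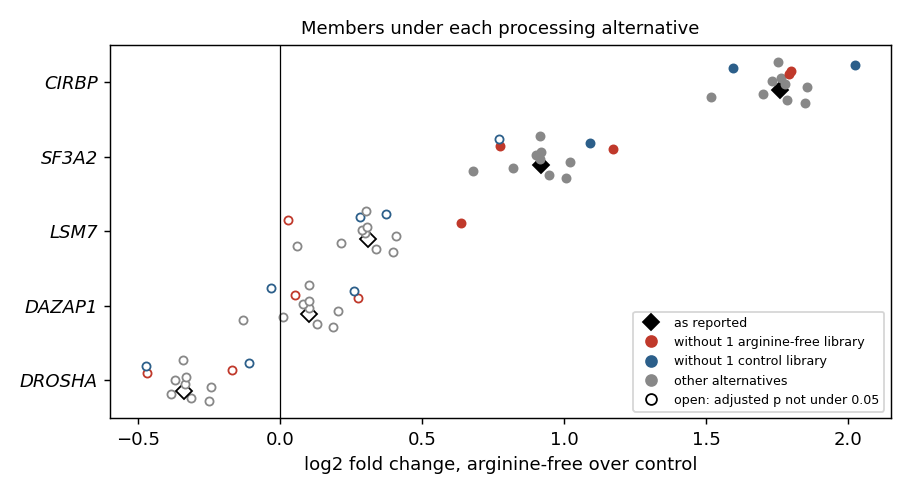
Log2 fold change of each member (arginine-free over control, horizontal axis) as reported (diamond) and under each alternative (circles), filled where the adjusted p was under 0.05. CIRBP is filled throughout, SF3A2 is open without control replicate 2, and LSM7 is filled without arginine-free replicate 1.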

How the data were processed

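Ribosome footprints were measured in 4 libraries of A375 cells, grouped by sample title. Per the file headers, the deposited values are raw counts per gene identifier, and the authors' counter was featureCounts 2.0.1, run over GENCODE 47 basic exons with no strand option. GRCh37, hg19, TopHat2, Bowtie2 2.5.2 and cutadapt are named in the submitters' processing notes. Rows were named by place against RefSeq on GRCh38.p14, as mutual best matches with an overlap over union of 0.5 (shared start or end) or 0.75, or where the row covered 90% of a protein-coding gene, which named CIRBP. No coordinates were converted.

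Counts were tested with edgeR 4.0.16 (R 4.3.3; TMM, filterByExpr, quasi-likelihood test, Benjamini-Hochberg over all tested rows). Each SE was derived from the size of the log2 fold change and the root of its F statistic. In simulated counts over 2526 rows for arginine-free against control, 89% of 4-fold and 26% of 2-fold changes were recovered, with 8 calls among unchanged rows. Profiles used log2(CPM + 0.5). Alternatives were RLE, upper-quartile or no factors, other filters, DESeq2 1.42.0, nuclear rows, a replicate block, each library left out and, added after seeing the data, stretch rows alone. A count of 0 allows up to 3 reads, from 12.8 to 28.6 CPM of all reads, for counting error only. Named genes were the members, tested list genes in the stretches, the 3 nearest profiles, overlapping rows and nearest neighbours with 20 reads. The members, lists, stretches and motifs were chosen with earlier results of these data known. Python 3.11.15 with pandas 2.3.3 was used for tables.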

Additional observations from a re-analysis of the deposited data

How the results depend on the processing

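With 2 libraries per group and 105004 reads in the shallowest, 26% of simulated 2-fold changes were recovered over tested rows of all levels. Recovery at the read levels of the members was not measured. On the log2 scale the SE was 0.22 for DAZAP1, 0.24 for LSM7 and 0.32 for DROSHA. Members that did not pass are not shown to be unchanged. The call for CIRBP held in every alternative. SF3A2 no longer passed without control replicate 2 (log2 fold change 0.77), and leaving out single libraries gave 0.77 to 1.17. LSM7 newly passed without arginine-free replicate 1 (0.64), with 0.0299 to 0.638 over the libraries left out. DAZAP1 and DROSHA passed in none, and DROSHA was removed by the filter that asked for 50 counts in both libraries of either group. That filter shifted the log2 fold changes of shared rows by a median of -0.235, and SF3A2 and CIRBP stood there at 0.68 and 1.52. The cause of these differences was not tested, although fewer rows or libraries enter some settings by construction.

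Over all rows, 405 were higher and 428 lower. The counts were 138 and 146 with the filter of 50 counts (580 rows), 162 and 147 with DESeq2, and 27 and 28 with stretch rows alone (173 rows). Leaving out single libraries gave 270 to 418 higher and 243 to 389 lower. For the splicing and RNA-binding list, 7 higher and 8 lower became 5 and 3 with the filter of 50 counts and 4 and 1 with DESeq2, with 3 to 8 higher and 2 to 6 lower when single libraries were left out. List rows inside the readable regions numbered 1 to 3 higher and 0 lower in those settings. Libraries share only a replicate number (correlation of deviations -0.053), and with the replicate block 354 rows were higher and 372 lower, with SF3A2 at 0.92 (edgeR adjusted p = 0.0304), CIRBP at 1.78 (adjusted p = 0.000555) and no change in the calls of the 5 members.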
